A study of Mus musculus with 10 samples.

Results

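The mitochondrial ribosomal proteins are nuclear-encoded proteins that build the ribosome inside mitochondria. They were taken here as every gene whose array symbol was Mrpl or Mrps followed by a number, with a final a, b or c allowed, and were measured in mouse oocytes with and without an RNAi transgene against basonuclin. The rule found 76 genes, carried by 156 probe sets, and all 76 matched a mouse RefSeq gene by number and symbol. A gene was tested if a probe set exceeded log2 intensity 5 in at least 4 samples, and 75 of the 76 were, among 10590 tested genes in all. The gene left out was Mrps34, a small subunit gene, whose probe set lay between 2.61 and 2.75 in all 10 samples.

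The samples were total RNA of fully grown oocytes at the germinal vesicle stage, the resting stage in which an oocyte waits before its meiotic divisions. Each sample held 50 oocytes of 1 mouse, and each was hybridised to its own Affymetrix array. The 4 control samples came from mice without the transgene and carry replicate numbers 1, 2, 7 and 8. The 6 RNAi-transgenic samples carry numbers 4, 5, 6, 11, 12 and 13 and come from mice whose oocytes express RNA interference against basonuclin (Bnc1), a zinc finger protein. The strain, the age of the mice and the promoter driving the transgene are not given in the sources used here. It is also not stated whether the RNAi-transgenic samples come from more than 1 founder line, and p-values measure only the spread between these samples.

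Values are log2 of the deposited GCRMA intensity, and a change is the RNAi-transgenic mean minus the non-transgenic mean of log2 intensity. Bnc1 itself averaged 11.57 ± 0.15 (SD, n = 4) in the controls and 3.85 ± 0.21 (SD, n = 6) with the transgene, a difference of at least 95.1-fold in the direction the labels give (adjusted p from limma = 2.65e-11). The median intensity of an array was between 17.5 and 20.1, and 40.1% to 40.9% of probe sets exceeded log2 5. Of all tested genes, 37.2% differed between the groups at an adjusted p below 0.05, so a changed gene was a common event here. The oocyte marker genes were all measured (16 of 16), with a summed intensity of 217263 to 233206 in the non-transgenic and 213946 to 258018 in the RNAi-transgenic samples. Among them Kit rose by 0.78 (limma adjusted p = 9.09e-05), Figla fell by 0.54 (limma adjusted p = 0.0153), and 14 did not pass. The number of oocytes was 50 in every sample. For any other cells in bulk RNA such as this, fewer cells of a type and less RNA per cell cannot be told apart. An array level says nothing of protein.

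Mitochondria keep a small genome that encodes core subunits of the respiratory chain and the ATP synthase, and they translate its messages on ribosomes of their own. The RNAs of that ribosome come from the mitochondrial genome, whereas its proteins are made in the cytoplasm from nuclear genes and are imported. The large subunit joins amino acids at the peptidyl transferase centre, and the small subunit binds the messenger RNA and checks the pairing with transfer RNA. Many of the proteins descend from those of bacterial ribosomes, and others occur only in mitochondrial ribosomes. Oocytes carry many mitochondria, which pass from mother to offspring.

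The promoters of 4 members are printed because these genes had the largest changes among the members, with matches to the searched motifs in 3 of them and none in Mrps10. Each is the 300 bases from 250 before to 50 after the annotated gene start, written 5′ to 3′ on the strand of the gene, from RefSeq on GRCm38.p6. Capitals mark exact matches to a motif, described after the sequences. Mrpl9 lies at chr3:94443086-94443385 (plus strand), Mrpl27 at chr11:94653541-94653840 (plus), Mrpl39 at chr16:84735195-84735494 (minus) and Mrps10 at chr17:47368947-47369246 (plus).
Mrpl9: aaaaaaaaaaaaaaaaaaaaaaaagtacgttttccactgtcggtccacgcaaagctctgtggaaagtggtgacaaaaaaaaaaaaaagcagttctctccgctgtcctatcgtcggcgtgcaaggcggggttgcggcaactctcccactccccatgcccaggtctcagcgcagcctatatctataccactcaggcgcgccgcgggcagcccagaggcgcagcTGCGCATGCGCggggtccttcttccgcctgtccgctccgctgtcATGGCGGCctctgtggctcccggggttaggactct
Mrpl27: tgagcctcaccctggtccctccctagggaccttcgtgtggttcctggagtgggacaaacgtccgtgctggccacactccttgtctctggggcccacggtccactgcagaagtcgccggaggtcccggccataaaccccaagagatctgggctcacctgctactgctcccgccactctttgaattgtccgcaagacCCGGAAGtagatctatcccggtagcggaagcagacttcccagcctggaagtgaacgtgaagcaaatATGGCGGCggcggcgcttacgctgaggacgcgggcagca
Mrpl39: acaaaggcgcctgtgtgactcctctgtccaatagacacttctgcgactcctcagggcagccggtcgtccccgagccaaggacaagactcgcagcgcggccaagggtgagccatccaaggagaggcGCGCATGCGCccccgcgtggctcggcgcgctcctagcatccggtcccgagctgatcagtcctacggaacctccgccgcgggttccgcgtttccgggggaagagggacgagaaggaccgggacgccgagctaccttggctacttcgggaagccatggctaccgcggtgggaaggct
Mrps10: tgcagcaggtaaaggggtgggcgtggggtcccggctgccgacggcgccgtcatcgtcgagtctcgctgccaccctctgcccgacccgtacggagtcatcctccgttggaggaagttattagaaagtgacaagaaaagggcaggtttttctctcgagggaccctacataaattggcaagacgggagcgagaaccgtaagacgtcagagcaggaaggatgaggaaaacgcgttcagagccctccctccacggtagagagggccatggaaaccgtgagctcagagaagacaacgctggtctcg

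The motifs, searched on both strands, were TGCGCATGC, bound by NRF1, an activator of nuclear genes for mitochondrial proteins, the NRF1 palindrome GCGCATGCGC, CCGGAAG of the ETS factors, ATGGCGGC of YY1, TGACGTCA of CREB and the E-box CACGTG. The NRF1 palindrome overlaps the shorter NRF1 letters where a T precedes or an A follows it. The Mrpl9 promoter has the NRF1 letters starting 29 bases before the gene start, overlapping the palindrome at 28, and the YY1 letters 15 bases after it. The Mrpl39 promoter has the NRF1 palindrome 125 bases before the start, without the shorter NRF1 letters and without the other motifs. The Mrpl27 promoter has the ETS letters 55 bases before the start and the YY1 letters 11 bases after it. The YY1 letters begin with ATG, the letters of the start codon. The Mrps10 promoter holds none of the motifs, which says only that these letters are not in this window.

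Among the 73 member promoters in the table, 25 held the ETS letters (34.2%, against 17.0% of the promoters of tested genes and 8.86% of all promoters). The YY1 letters were in 11 (15.1%, against 4.53% and 2.24%), and the NRF1 letters were in 6 (8.22%, against 2.96% and 1.52%). The NRF1 palindrome was in 3, those of Mrpl9, Mrpl32 and Mrpl39 (4.11%, against 2.03% and 0.971%). The E-box was in 7 (9.59%, against 9.77% and 7.15%) and the CREB letters in 2 (2.74%, against 2.92% and 1.79%). The E-box promoters were those of Mrpl37, Mrpl20, Mrps18c, Mrpl36 and Mrpl2. Mrpl2 has several overlapping windows that hold the same E-box, and each was counted. Of the 20 promoters of members that fell, 9 held ETS, 4 YY1, 3 NRF1, 2 the NRF1 palindrome, 2 the E-box and 0 CREB letters. Of the 6 promoters of members that rose, 3 held ETS and 1 NRF1 letters, and 0 held the others. Some genes have more than 1 promoter in the table, and these shares are descriptions without a test.

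Across the 75 tested members, 22 fell and 7 rose in the RNAi-transgenic oocytes, and 46 did not pass the test (limma, adjusted p below 0.05 over all 10590 genes). The members that fell were 29.3% of those tested, beside 18.3% of all tested genes, and those that rose were 9.33%, beside 18.9%. Together 38.7% of the members changed, close to the 37.2% of all genes. The change was negative for 56 of the 75 members (74.7%), beside 54.0% of all tested genes. Its median was -0.13 over the members and -0.03 over all genes. These shares describe the list, and no test of it was made.

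With an adjusted p below 0.05, 6 members (8%) fell by 1.5-fold or more, beside 7.49% of all tested genes, and 2 (2.67%) rose by as much, beside 11.6%. A change of at least 2-fold was found in 8.98% of all tested genes (951) and in 0 of the members, whose 2 largest folds were 1.92. The non-transgenic and RNAi-transgenic samples did not overlap for 14 members that were lower (13.1% of all genes) and 6 that were higher (14.8% of all genes). The plot of the change of each member shows that most members lie to the left of 0 and few lie beyond 0.5 on either side.

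**Figure D1:**
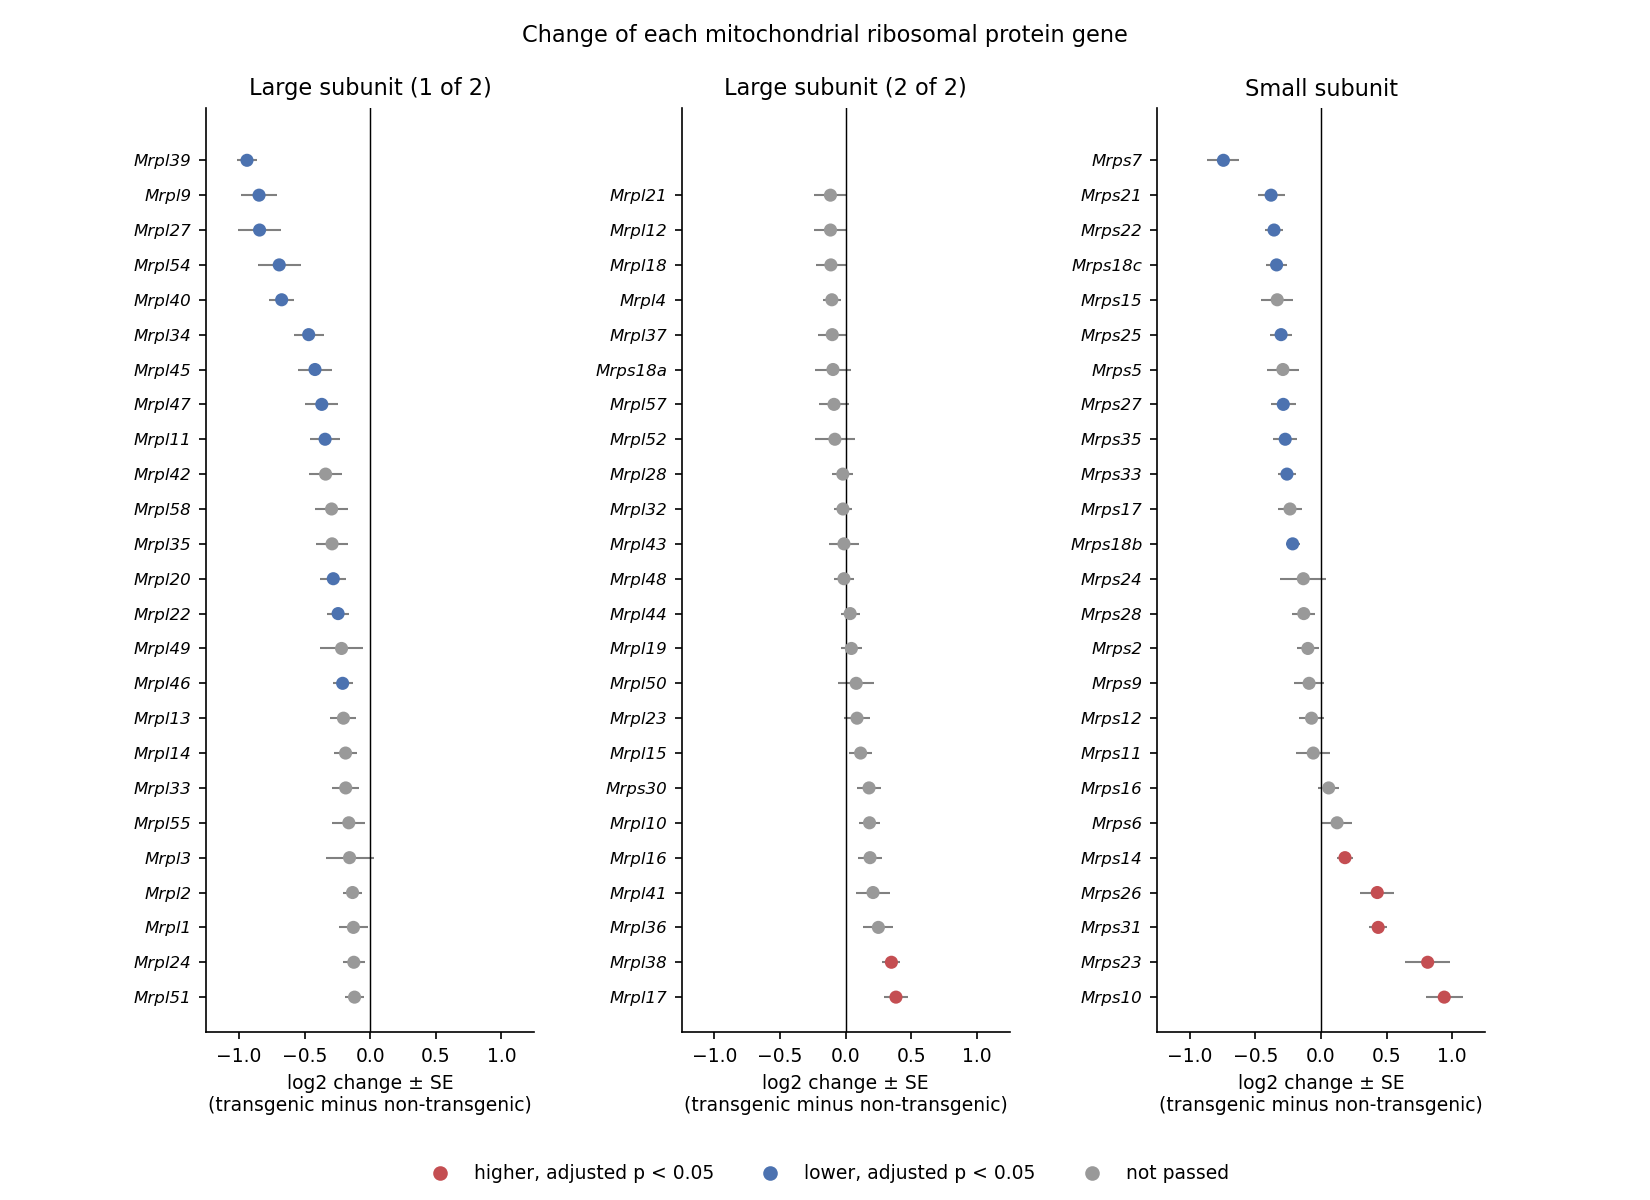
Change of each tested mitochondrial ribosomal protein gene, as the RNAi-transgenic minus the non-transgenic mean of log2 intensity (x axis), with points for the estimate and bars for its standard error (4 against 6 samples), for the 49 large and 25 small subunit genes. Blue marks genes that fell and red genes that rose at an adjusted p below 0.05: 12 and 2 in the large subunit, 9 and 5 in the small subunit. Of all tested genes, 18.3% fell and 18.9% rose. Mrps36, which fell and belongs to neither subunit, is not drawn.

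In the large subunit, 12 of 49 tested genes fell and 2 rose, and the median change was -0.12. These were 24.5% and 4.08%, beside 18.3% and 18.9% of all tested genes. Mrpl39 encodes a large subunit protein that bacterial ribosomes lack and showed the smallest adjusted p of all members. Its log2 intensity was 12.17, 12.19, 12.29 and 12.22 in the non-transgenic samples, and 11.05 at the lowest, 11.31 at the median and 11.44 at the highest in the RNAi-transgenic samples. All 6 RNAi-transgenic samples lay below all 4 controls. Mrpl39 fell by 0.94 ± 0.08 (SE; limma adjusted p = 4.25e-06), a 1.92-fold decrease, and the smallest exact two-sided permutation p that this design allows, 0.00476, was reached. Its second probe set averaged 10.39 and 9.45 in the 2 groups and gave -0.93.

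Mrpl9 encodes the counterpart of a bacterial ribosomal protein. It measured 12.71, 12.28, 12.10 and 12.09 in the non-transgenic samples, and 11.25 at the lowest, 11.39 at the median and 11.77 at the highest in the RNAi-transgenic samples. The groups did not overlap, and replicate 1 stood above the other controls. Mrpl9 fell by 0.85 ± 0.14 (SE; limma adjusted p = 0.000696), or 1.80-fold, and its 3 tested probe sets all fell, by 0.85, 0.82 and 0.40. Mrpl27, whose bacterial counterpart reaches close to the peptidyl transferase centre, measured 7.25, 7.63, 7.51 and 7.48 in the non-transgenic samples, and 6.06 at the lowest, 6.78 at the median and 6.87 at the highest in the RNAi-transgenic samples. The groups did not overlap, and replicate 6 was the lowest. Mrpl27 fell by 0.84 ± 0.16 (SE; limma adjusted p = 0.00192), or 1.79-fold.

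Mrpl40 and Mrpl54 encode large subunit proteins found in mitochondria and not in bacteria. Mrpl40 measured 10.18, 10.43, 10.37 and 10.45 in the non-transgenic samples, and 9.47 at the lowest, 9.70 at the median and 9.92 at the highest in the RNAi-transgenic samples, with no overlap. It fell by 0.68 ± 0.09 (SE; limma adjusted p = 0.000233), or 1.60-fold. Mrpl54 measured 6.92, 6.83, 7.13 and 6.69 in the non-transgenic samples, and 5.70 at the lowest, 6.22 at the median and 6.55 at the highest in the RNAi-transgenic samples, again with no overlap. It fell by 0.69 ± 0.16 (SE; limma adjusted p = 0.00649), or 1.62-fold, with an exact permutation p of 0.00952. The other 7 large subunit genes that fell were Mrpl34, Mrpl45, Mrpl47, Mrpl11, Mrpl20, Mrpl22 and Mrpl46, with changes between -0.47 and -0.21 and adjusted p between 0.00772 and 0.0481.

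The calls of 6 of those 7 genes, all but Mrpl34, depended on single samples. Without non-transgenic replicate 1 the adjusted p of Mrpl45 was 0.0591, and the change of Mrpl47 was -0.22 in place of -0.37. Mrpl22 lost its call in 5 of the 10 fits that leave out 1 sample, Mrpl11 in 7, and Mrpl47, Mrpl20 and Mrpl46 in 8 each, at adjusted p between 0.0502 and 0.121. Leaving out non-transgenic replicate 7 or RNAi-transgenic replicate 5 or 13 left 7 large subunit genes that fell in place of 12.

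Mrpl38 and Mrpl17 were the 2 large subunit genes that rose. Mrpl38, a protein of mitochondrial ribosomes only, measured 9.18, 9.38, 9.24 and 9.22 in the non-transgenic samples, and 9.56 at the lowest, 9.59 at the median and 9.67 at the highest in the RNAi-transgenic samples. All RNAi-transgenic samples lay above all controls, and it rose by 0.35 ± 0.07 (SE; limma adjusted p = 0.00238). Mrpl17, which has a bacterial counterpart, measured 9.23, 9.41, 9.46 and 9.50 in the non-transgenic samples, and 9.60 at the lowest, 9.81 at the median and 9.92 at the highest in the RNAi-transgenic samples, with no overlap. It rose by 0.38 ± 0.09 (SE; limma adjusted p = 0.00636), or 1.30-fold.

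Mrpl48, Mrpl43, Mrpl32, Mrpl28 and Mrpl44 had the 5 changes nearest to 0 among all members. Mrpl48 averaged 12.45 and 12.44, with a 95% interval of the change from -0.18 to 0.16. For Mrpl43 (8.06 and 8.05) the interval ran from -0.26 to 0.23, and for Mrpl32 (11.28 and 11.26) from -0.17 to 0.13. For Mrpl28 (9.42 and 9.40) it ran from -0.20 to 0.16, and for Mrpl44 (11.17 and 11.20) from -0.12 to 0.19. For these genes a change as large as that of Mrpl39 lies outside the interval.

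In the small subunit, 9 of 25 tested genes fell and 5 rose, and the median change was -0.14. These were 36% and 20%, beside 18.3% and 18.9% of all tested genes. The share that changed was thus 56% in the small and 28.6% in the large subunit, beside 37.2% of all tested genes. The subunits were not tested against each other. Mrps7 encodes the counterpart of a bacterial protein that binds the head of the small subunit near the exit of transfer RNA. It measured 10.54, 10.49, 10.49 and 10.54 in the non-transgenic samples, and 9.28 at the lowest, 9.86 at the median and 9.95 at the highest in the RNAi-transgenic samples. The 4 controls lay close together, and every RNAi-transgenic sample lay below them. Mrps7 fell by 0.74 ± 0.12 (SE; limma adjusted p = 0.00071), or 1.68-fold.

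Mrps22, a protein of mitochondrial ribosomes whose mutation causes mitochondrial disease in humans, fell as well. Its log2 intensity was 13.49, 13.38, 13.45 and 13.29 in the non-transgenic samples, and 12.94 at the lowest, 13.00 at the median and 13.22 at the highest in the RNAi-transgenic samples. The groups did not overlap, and it fell by 0.36 ± 0.07 (SE; limma adjusted p = 0.00176), or 1.28-fold. The other small subunit genes that fell were Mrps18c, Mrps18b, Mrps33, Mrps25, Mrps21, Mrps27 and Mrps35, with changes between -0.38 and -0.22 and adjusted p between 0.00713 and 0.035. Mrps27 lost its call in 7 and Mrps35 in 6 of the 10 fits that leave out 1 sample, at adjusted p between 0.0514 and 0.108. Mrps15, at -0.33 with an adjusted p of 0.052, lay just outside the threshold.

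The member with the largest increase was Mrps10, the counterpart of a bacterial protein in the head of the small subunit. It measured 6.40, 6.24, 6.77 and 6.39 in the non-transgenic samples, and 7.19 at the lowest, 7.35 at the median and 7.81 at the highest in the RNAi-transgenic samples. All RNAi-transgenic samples exceeded all controls, and replicate 4 stood highest. Mrps10 rose by 0.94 ± 0.14 (SE; limma adjusted p = 0.0004), or 1.92-fold, as large as the fall of Mrpl39 and opposite in direction. Mrps23 measured 7.80, 8.52, 8.86 and 8.60 in the non-transgenic samples, and 9.17 at the lowest, 9.25 at the median and 9.41 at the highest in the RNAi-transgenic samples. Control replicate 1 was the lowest by far, yet the groups did not overlap. It rose by 0.81 ± 0.17 (SE; limma adjusted p = 0.00354), or 1.76-fold, and its 3 tested probe sets all rose, by 0.64 to 0.81.

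Mrps31 measured 12.10, 12.23, 12.14 and 12.22 in the non-transgenic samples, and 12.51 at the lowest, 12.55 at the median and 12.76 at the highest in the RNAi-transgenic samples. The groups did not overlap, and it rose by 0.44 ± 0.07 (SE; limma adjusted p = 0.000576). Mrps26 measured 8.97, 9.55, 9.07 and 9.54 in the non-transgenic samples, and 9.54 at the lowest, 9.73 at the median and 9.89 at the highest in the RNAi-transgenic samples. Here the groups overlapped, since control replicates 2 and 8 lay just above the lowest RNAi-transgenic sample, replicate 5, and below the other 5. It rose by 0.43 ± 0.13 (SE; limma adjusted p = 0.0241), and its adjusted p rose to between 0.0672 and 0.0744 when control replicate 1 or 7 was left out. Mrps23, Mrps31 and Mrps26 all belong to mitochondrial ribosomes only. The fifth small subunit gene that rose was Mrps14, of bacterial descent, at 0.18 with an adjusted p of 0.0373, and its other probe set gave 0.45. Mrps14 lost its call in 8 of the 10 fits that leave out 1 sample, at adjusted p between 0.0504 and 0.108.

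**Figure D2:**
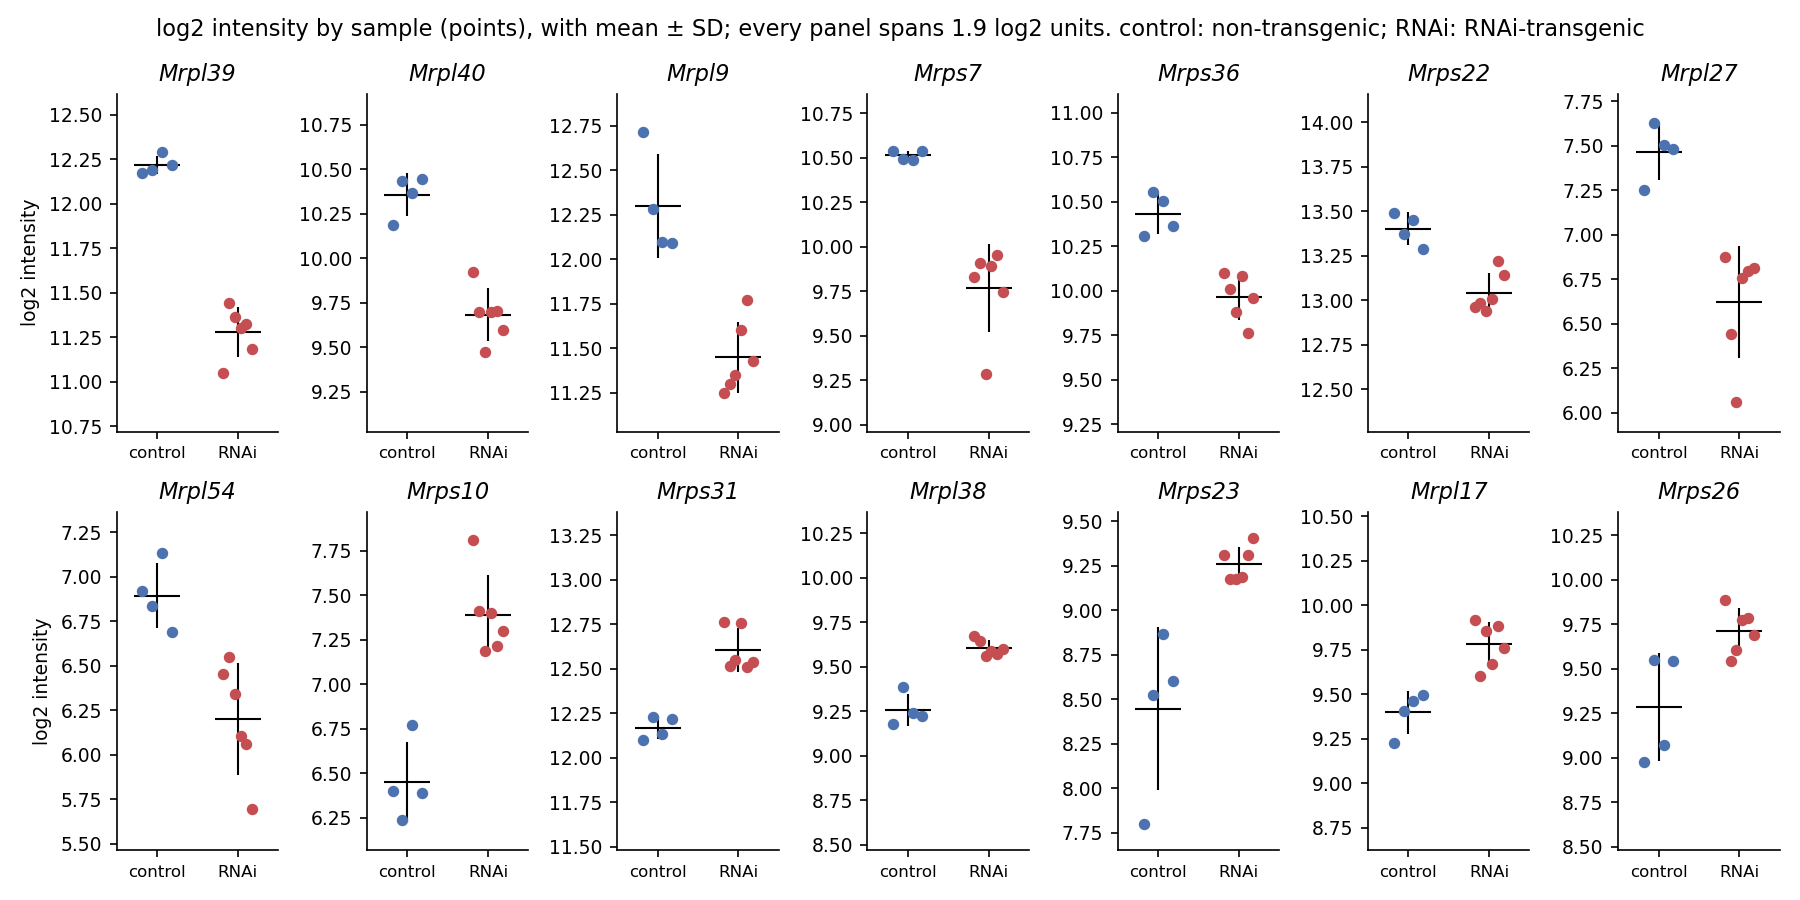
Log2 intensity of 14 members in each of the 4 non-transgenic (control, blue) and 6 RNAi-transgenic (RNAi, red) samples, with the group mean ± SD in black and the same span of log2 units in every panel. The first 8 panels are members that fell, from Mrpl39 to Mrpl54, and the last 6 are members that rose, from Mrps10 to Mrps26, and the groups overlap for Mrps26 alone among the 14.

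The proteins of 3 genes, Mrps18a, Mrps18b and Mrps18c, are related to 1 bacterial ribosomal protein, yet they sit at different places in the mitochondrial ribosome. Mrps18c takes the place of the bacterial protein in the small subunit. It measured 10.85, 10.74, 10.75 and 10.50 in the non-transgenic samples, and 10.31 at the lowest, 10.33 at the median and 10.53 at the highest in the RNAi-transgenic samples, and fell by 0.34 (limma adjusted p = 0.00713), although the lowest control lay below the highest RNAi-transgenic sample. Mrps18b, elsewhere in the small subunit, measured 11.50, 11.39, 11.40 and 11.44 in the non-transgenic samples, and 11.14 at the lowest, 11.23 at the median and 11.26 at the highest in the RNAi-transgenic samples. It fell by 0.22 (limma adjusted p = 0.00846), with no overlap. Mrps18a lies in the large subunit despite its symbol, averaged 9.41 and 9.31, and did not pass the test (-0.10, 95% interval -0.40 to 0.21). Mrps30, which also lies in the large subunit, had a change of 0.18 that did not pass the test (limma adjusted p = 0.141).

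Mrps36 is named as a small subunit gene, but its protein was later found in the alpha-ketoglutarate dehydrogenase complex of the citric acid cycle, and it was placed in neither subunit. It measured 10.31, 10.56, 10.50 and 10.36 in the non-transgenic samples, and 9.76 at the lowest, 9.99 at the median and 10.10 at the highest in the RNAi-transgenic samples. The groups did not overlap, and it fell by 0.47 ± 0.09 (SE; limma adjusted p = 0.00168). Counted by symbol alone, the Mrps genes had 5 that rose and 10 that fell of 28, and the Mrpl genes 2 and 12 of 47.

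Members were also divided by whether a protein sits at the same place in bacterial ribosomes. Among small subunit genes whose protein has no such counterpart, all 9 tested genes changed: Mrps23, Mrps26 and Mrps31 rose, and Mrps18b, Mrps22, Mrps25, Mrps27, Mrps33 and Mrps35 fell. This class also holds Dap3, Ptcd3 and Chchd1, which the rule on symbols leaves out and which did not pass the test. With them, 9 of 12 tested genes (75%) changed. Mrps34, the small subunit gene below the filter, is in none of these counts. With 1 sample left out, 6 to 8 of the 9 changed, and at 1.5-fold or more 1 did. Of the 16 small subunit genes with a bacterial counterpart, 31.25% changed. In the large subunit the shares were 27.6% of 29 genes with a counterpart and 30% of 20 without. The background for each share is the 37.2% of all tested genes, the classes are small, and no test was made between them.

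**Figure D3:**
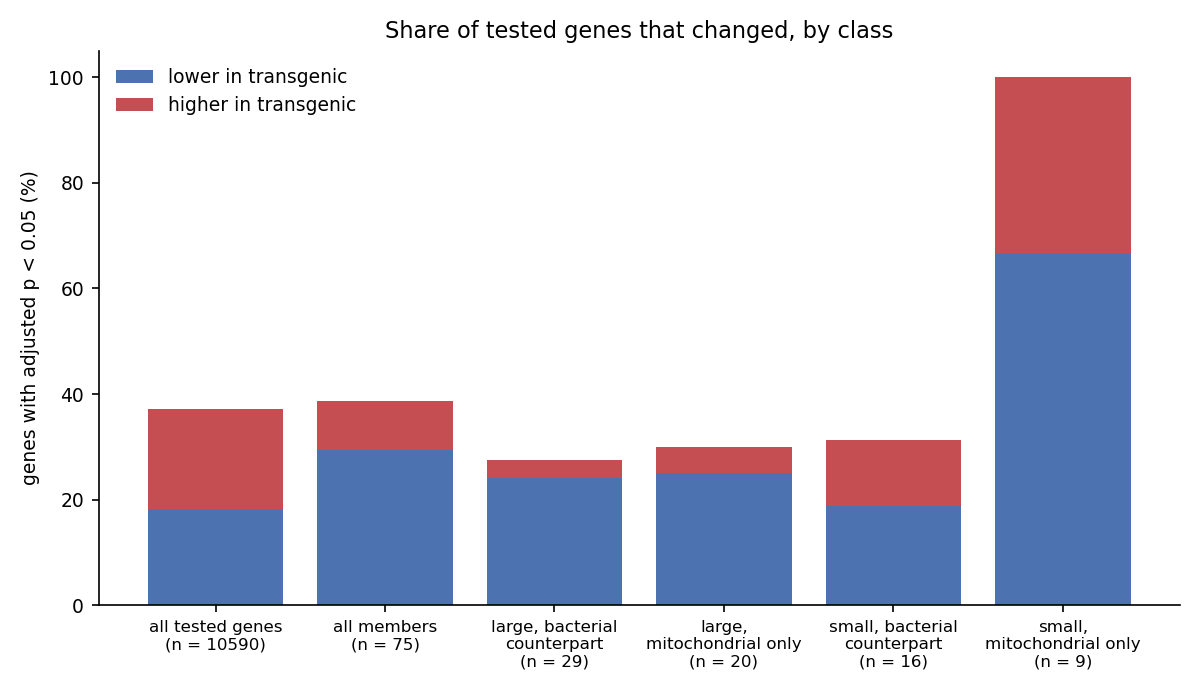
Share of tested genes with an adjusted p below 0.05 (y axis, percent), split into genes that fell (blue) and rose (red), for all 10590 tested genes, all 75 members and 4 classes of members by subunit and by presence of a counterpart in bacterial ribosomes. All 9 small subunit genes of the mitochondrial-only class changed, and the other 3 classes lie between 27.6% and 31.25%, below the 37.2% of all genes.

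The level of the members was also followed sample by sample, as the median over members of the difference from the non-transgenic mean. For all 75 members this median lay between -0.08 and 0.03 in the controls and between -0.20 and -0.03 in the RNAi-transgenic samples. For the large subunit RNAi-transgenic replicate 4, at 0.01, lay among the controls. For the small subunit replicate 5, at -0.09, lay above control replicate 8, at -0.10. The 2 groups thus overlapped by both medians, although most RNAi-transgenic samples lay lower. Over all tested genes the median was between -0.03 and 0.04 in the controls and between -0.03 and -0.02 in the RNAi-transgenic samples.

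**Figure D4:**
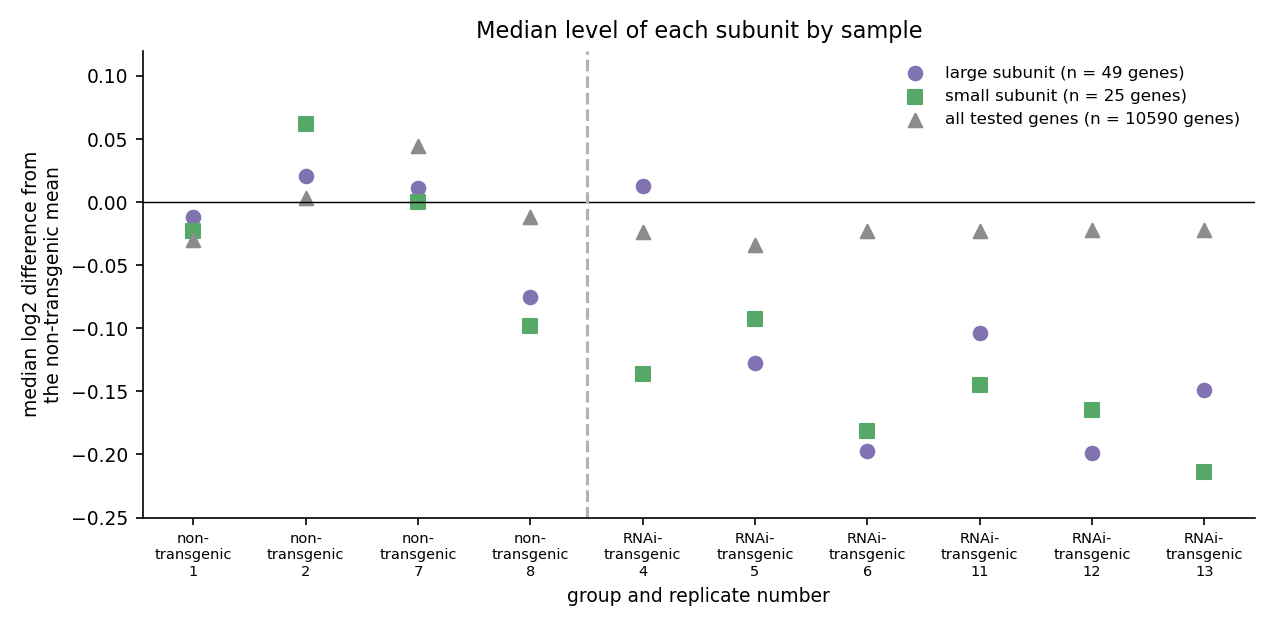
Median over genes of the log2 difference from the non-transgenic mean (y axis), for each of the 10 samples (x axis, by group and replicate number), over the large subunit, the small subunit and all tested genes. The RNAi-transgenic samples reach -0.20 and -0.21 in the subunits and stay between -0.03 and -0.02 over all genes, while replicate 4 is at 0.01 for the large subunit.

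The replicate numbers fall into 2 ranges, 1 to 6 and 7 to 13, each with 2 control and 3 RNAi-transgenic samples, and the comparison was repeated within each. No label calls these ranges batches. In numbers 1 to 6, 6 of the 75 members fell and 3 rose, beside 6.67% and 11.4% of all tested genes. In numbers 7 to 13, 10 of the 75 fell and 3 rose, beside 9.66% and 11.7% of all tested genes. All 9 members called in the first range had the same sign in the second, and all 13 called in the second had the same sign in the first, where 98.1% and 97.8% of all genes called did. Mrpl39, Mrpl9, Mrps7, Mrps10, Mrps31 and Mrps23 passed in both ranges. Mrpl9 changed by -1.20 in the first and -0.49 in the second, and Mrps10 by 1.15 and 0.73. The changes in the ranges had a Pearson correlation of 0.80 across the 75 members and 0.88 across all tested genes, which are not independent replicates.

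**Figure D5:**
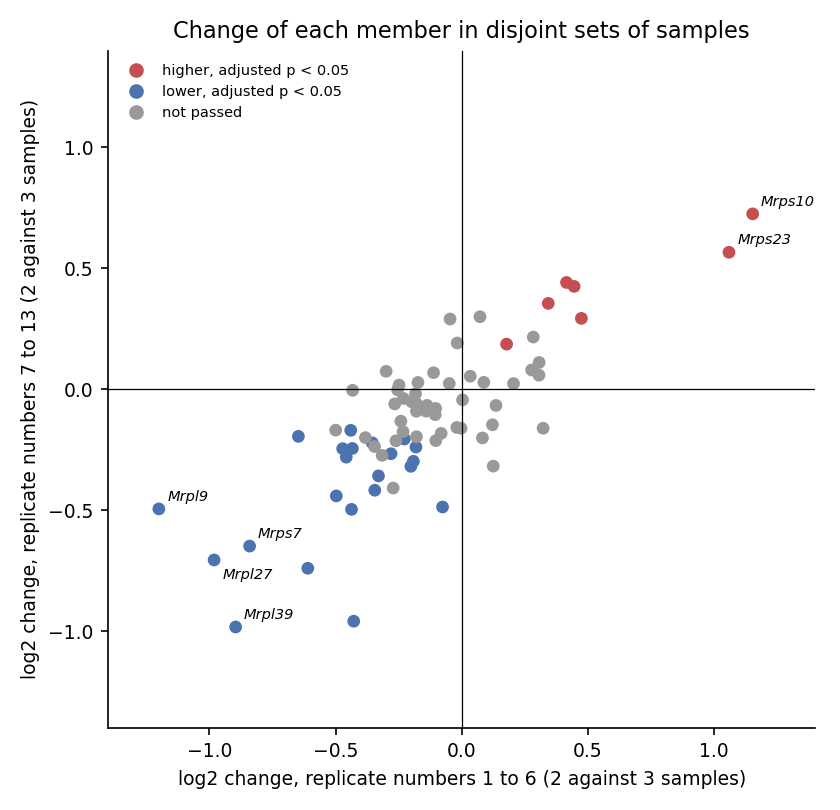
Log2 change of each of the 75 members in the samples with replicate numbers 1 to 6 (x axis) and 7 to 13 (y axis), which share no sample, each with 2 non-transgenic and 3 RNAi-transgenic samples. Colours give the result over all 10 samples. All 22 members that fell (blue) are negative and all 7 that rose (red) are positive in both ranges. They were called on all 10 samples, which the 2 ranges together make up, so this agreement in sign follows largely from that selection.

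Some members were measured by more than 1 probe set. Of 24 members with several tested probe sets, 17 had the same sign in all of them, 21 had the same call, and none had calls in opposite directions. The sign differed for Mrps5 (-0.41 to 0.29), Mrpl35 (-0.29 to 0.21), Mrpl15 (-0.37 to 0.11), Mrpl51 (-0.12 to 0.04) and Mrps6 (-0.04 to 0.12). It also differed for Mrpl28 (-0.24 to 0.01) and Mrpl44 (-0.17 to 0.03), and no probe set of these members passed the test. Mrps25 fell by 2 of its 3 probe sets, Mrpl11 by 1 of 3 (10.53 to 10.18 on the brightest), and Mrpl34 by 1 of 2, the other giving -0.41 with a limma adjusted p of 0.19.

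Ribosomal proteins work with factors that build the ribosome and run translation, and these were taken from lists of named genes. Of the 30 tested genes of mitochondrial ribosome assembly, 7 fell, 4 rose and 19 did not pass. Tfb1m, which methylates the RNA of the small subunit, fell from 11.00 ± 0.13 (SD, n = 4) to 10.31 ± 0.21 (SD, n = 6; limma adjusted p = 0.000631). Trub2, a pseudouridine synthase, fell by 1.18 (limma adjusted p = 0.000543). Ngrn fell by 0.61 (limma adjusted p = 0.000505), and Lonp1, a protease of the mitochondrial matrix, fell by 0.51 (limma adjusted p = 0.00292). Rcc1l, a large subunit assembly factor, exceeded log2 intensity 5 in 2 of the 4 controls and was at least 4.96-fold higher in the RNAi-transgenic samples (limma adjusted p = 4.83e-05). Rpusd3, Clpp and C1qbp rose by 0.67, 0.67 and 0.53. The background shares stand at 18.3% lower and 18.9% higher.

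Of the 16 tested translation factors, 7 fell (43.75%), 1 rose (6.25%) and 8 did not pass. The background shares were again 18.3% lower and 18.9% higher. Among those that fell, Mtrf1l, a release factor that ends translation, went from 8.25 ± 0.29 (SD, n = 4) to 7.38 ± 0.35 (SD, n = 6; limma adjusted p = 0.00518). Gfm1, the elongation factor that moves the ribosome along the message, fell by 0.33 (limma adjusted p = 0.00462). Gfm2, which acts in recycling of ribosomes, fell by 0.62 (limma adjusted p = 0.0047). Pdf, which removes the formyl group from new proteins, fell by 0.45 (limma adjusted p = 0.00582). Coa3, which couples translation to cytochrome oxidase assembly, rose by 0.47 (limma adjusted p = 0.013). Over these 2 lists and 4 ribosomal proteins under other names, 14 of 50 fell (28%) and 5 rose (10%), with a median of -0.05. Of 5 listed ribosomal proteins under other names, 4 were tested and none of these passed (Dap3 0.07, Ptcd3 -0.07, Chchd1 -0.15 and Gadd45gip1 -0.18, with 1 at an unadjusted limma p below 0.05).

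Several members start head to head with a neighbour, on opposite strands with starts within 500 bases, in the RefSeq table of GRCm38.p6. This held for 20 of 67 members with an entry (29.9%) and for 11.9% of 8401 tested genes. Of 15 tested neighbours that are not members, 7 fell and 0 rose (0 also at an unadjusted limma p below 0.05), beside 18.3% and 18.9% of all tested genes. Both genes fell for Mrpl40 and Hira, a histone chaperone gene 113 bases away (Hira -0.54, limma adjusted p = 0.0044). The same held for Mrpl27 and Eme1, a DNA repair nuclease subunit 48 bases away (Eme1 -0.75, adjusted p = 0.00907), and for Mrps18c and Helq, a DNA helicase 159 bases away (Helq -0.48, adjusted p = 0.00165). These are 3 of the 7 changed members with a tested neighbour, and in the other 4 pairs the neighbour did not pass. These neighbours were Gga3 of Mrps7 (-0.08, limma adjusted p = 0.591), Ptcd2 of Mrps27 (-0.20, adjusted p = 0.117), Ndufb5 of Mrpl47 (-0.09, adjusted p = 0.401) and Mrps11, itself a member, 42 bases from Mrpl46 (-0.06, adjusted p = 0.755). Beside Mrpl43, which was at -0.01, Twnk, the mitochondrial DNA helicase, was at least 2.80-fold lower (limma adjusted p = 9.18e-05), taking log2 5 for the 5 of 6 RNAi-transgenic samples that did not exceed it. Neighbours of other members that did not pass fell as well. These were Fau beside Mrpl49 (-0.34, limma adjusted p = 0.0215), Tcp1 beside Mrpl18 (-0.25, 0.0167) and Ska3 beside Mrpl57 (-0.65, 0.0127). Tmem63b, Klc4, Ighmbp2, Sars2 and Psma2, also beside members that did not pass, did not pass themselves. All these pairs were examined after the values had been seen.

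Markers of other ovarian cells were measured beside these results. Of 20 granulosa and cumulus markers 9 were tested and 2, Fshr and Cyp11a1, rose, and the summed intensity was 1729 to 1981 in the controls and 1703 to 2856 in the RNAi-transgenic samples. Lhcgr, Cyp19a1, Star, Amh, Foxl2 and 6 other granulosa markers did not pass the filter. Of 14 stroma and vessel markers 7 were tested, of which 4 rose and 1 fell. Col4a2, Dcn, Postn and Kdr rose by 1.13, 1.11, 0.81 and 1.19, without overlap of the groups, and Acta2 fell by 0.50. The sums were 633 to 749 in the controls and 840 to 1112 in the RNAi-transgenic samples. Of 11 blood markers 4 were tested, of which 1 rose (Laptm5) and 1 fell (Srgn), with sums of 3422 to 4286 and 2851 to 4502. Among the markers that did not pass the filter were Col1a1, Col3a1, Pecam1 and Cdh5 of stroma and vessels, and Ptprc and Hbb-b1 of blood. The 3′ minus 5′ difference of the Gapdh control probe sets is a sign of RNA quality. It was 3.72 to 4.34 in the non-transgenic and 3.63 to 4.12 in the RNAi-transgenic samples. The overlap came from non-transgenic replicate 2 (3.72) and RNAi-transgenic replicate 6 (4.12). Without them the non-transgenic samples (4.00 to 4.34) all lay above the RNAi-transgenic ones (3.63 to 3.75), so the difference partly followed the group. With the Gapdh difference in the fit, 21 members fell and 5 rose, and 3181 of all tested genes changed in place of 3940. In that fit Mrps33, Mrpl45, Mrps27, Mrpl22, Mrpl11, Mrpl47, Mrpl20 and Mrpl46 lost their call as lower, and Mrps26 and Mrps14 as higher. The 21 thus include members that were not called in the main fit. For actin the 3′ minus 5′ difference reached 5.13 in RNAi-transgenic replicate 6. The part of these markers in the results on the members was not tested.

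Control replicate 1 and RNAi-transgenic replicate 6 lay farthest from their groups over all tested genes. Without both, 16 members fell and 6 rose, and 7 large subunit genes fell. Of all 29 changed members, 19 kept their call with each sample left out in turn, and 6 kept it in all 26 alternatives run gene by gene: Mrpl39, Mrpl9, Mrps7, Mrps10, Mrps31 and Mrps23. Of these 6, all but Mrps31 (1.35-fold) also changed by 1.5-fold or more.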

How the data were processed

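The authors deposited linear probe-set intensity values of 10 Affymetrix mouse arrays, made with GCRMA (background correction, normalization and summary) per the submitters' processing notes; no version is recorded there. No read depth applies, and the number of arrays limits the precision.

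Of 45101 probe sets, 64 were controls, 34945 had 1 gene in the platform annotation, 932 several and 9160 none. Values were taken to log2. A probe set needed log2 above 5 (intensity 32) in at least 4 samples, and the brightest by mean stood for its gene (16807 probe sets, 10590 genes; 4036 genes had several). limma 3.58.1 (R 4.3.3; lmFit and eBayes with trend) compared the groups without a block, with Benjamini-Hochberg adjustment over all genes; probe-set results were adjusted over probe sets. The fit was tested on simulated data. Exact two-sided permutation tests used all sample splits. Figures used matplotlib 3.10.9.

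Members and gene lists were chosen with earlier results of these data known, and structural classes come from general knowledge. All sample values were drawn for the 8 lower and 6 higher members by adjusted p. Their descriptions give each control value and the lowest, median and highest RNAi-transgenic value. Listed factors were described up to 4 each way. Gene sets got no test. Added after the data were seen were the fit without 2 arrays, the neighbouring genes and the shorter NRF1 motif (the palindrome was listed first). Alternatives covered normalization, filter, offset, probe-set choice, samples, covariate and thresholds. Mrps34 did not pass the filter.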

Additional observations from a re-analysis of the deposited data

Results flagged for a closer look

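In 5 of the 72 groups of values examined, 1 sample stood apart from the rest of its group by Dixon's criterion, which chance alone meets in about 1 group in 20. For Mrps7, RNAi-transgenic replicate 6 was at 9.28, below the next value of 9.75. For Mrps10, RNAi-transgenic replicate 4 was at 7.81, above the next value of 7.41. For Mrps21, non-transgenic replicate 2 was at 9.79, above the next value of 9.55. For Mrpl22, non-transgenic replicate 2 was at 11.82, above the next value of 11.71. For Mrpl44, which did not pass the test, non-transgenic replicate 1 was at 10.99, below the next value of 11.21. Mrps7, Mrps10 and Mrps21 kept their calls with each sample left out, and Mrpl22 did not.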

How the results depend on the processing

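The 22 members that fell became 6 and 10 in replicate numbers 1 to 6 and 7 to 13, 12 at an adjusted p below 0.01 and 6 at 1.5-fold or more. The 7 that rose became 3, 3 and, at 1.5-fold, 2. The 12 large subunit genes that fell became 2 and 7 in the ranges, 7 without a filter, 7 without the 2 arrays farthest from their group, 6 at 0.01 and 5 at 1.5-fold, and the 2 that rose became 0 in each range and 0 at 1.5-fold. The 9 small subunit genes that fell became 4, 2, 5 and 1 (ranges, 0.01, 1.5-fold), and the 5 that rose 3, 3, 3 and 2, and 3 with the Gapdh difference as covariate. The 9 changed small subunit genes without a bacterial counterpart became 4, 3, 5 and 1. Translation and assembly genes that rose (5) became 2, 3, 3 and 3, and those that fell (14) became 4 and 5 in the ranges and 5 at 1.5-fold. Over all genes 3940 became 1913, 2264, 2501 and 2024. The ranges hold fewer samples and the thresholds are stricter; the cause of the other shifts was not tested.

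With 1 sample left out, 15 to 22 members fell and 6 to 7 rose (large subunit 7 to 12 and 2 to 3, small subunit 7 to 9 and 3 to 5, of which without a counterpart 6 to 8 changed). Bnc1 passed the test in each of these fits. Quantile normalization gave 25 and 7 members and median centring 27 and 6, with medians of all genes at -0.07 and -0.08.

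No called member changed sign. Changes near 0 did: Mrps18a 0.12 (1 to 6), Mrpl48 0.12 (1 to 6) and 0.0462 (Gapdh), Mrpl43 0.0239 (7 to 13), Mrpl32 0.0033 (1 to 6), Mrpl28 0.0687 (7 to 13) and Mrpl44 -0.0666 (7 to 13), -0.0204 (median centring), -0.0471 (mean of probe sets) and -0.0288 (2 arrays left out). With 1 sample left out these ran from -0.0569 to 0.0394 (Mrpl48), -0.0663 to 0.0469 (Mrpl43), -0.0495 to 0.0012 (Mrpl32), -0.0594 to 0.0194 (Mrpl28) and -0.0265 to 0.0617 (Mrpl44).

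No paired analysis was possible because the groups share no replicate number.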
